A study of Homo sapiens with 12 samples.

Results

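The long non-coding RNAs MALAT1, NEAT1, NORAD, PVT1, KCNQ1OT1, MIR663AHG and LINC02331 were followed through 12 RNA-seq libraries of colon cancer cells. These 7 RNAs are among the 60617 genes in the deposited tables. MALAT1, NEAT1, NORAD, PVT1 and KCNQ1OT1 were picked by name. MIR663AHG and LINC02331 were picked because of their values in these same libraries, so their levels are given as a description with no test. All 7 passed the filter on low counts, together with 15685 other genes. A pair of cell lines was compared, each with vehicle or with 5 nM actinomycin D (Act D) for 24 h, in 4 groups of 3 biological replicates. The first line was HCT 116p53-/-, a colon cancer line without functional p53. The second was labelled HCT 116p53-/- RPL3 KO; in the study's methods it is a sub-line of HCT 116p53-/- stably silenced for uL3, the ribosomal protein that RPL3 encodes. Both lines carry the p53 deletion, and each line difference rests on 1 sub-line. The comparisons ask how the lines differ and how each responds to low-dose Act D, which at this dose mainly inhibits RNA polymerase I.

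Long non-coding RNAs are transcripts that are not translated into a known protein and that act as RNA. MALAT1 is retained in nuclear speckles, and the long NEAT1 transcript is the scaffold of paraspeckles, nuclear bodies built on RNA-binding proteins. NORAD is mainly cytoplasmic and carries many binding sites for Pumilio proteins such as PUM2, so the 7 RNAs are not called nuclear here, and the total RNA measured says nothing about where a transcript was. PVT1 lies beside the oncogene MYC. KCNQ1OT1 is transcribed from the paternal copy of an imprinted domain, antisense to KCNQ1, and takes part in the silencing of its neighbours. MIR663AHG is the host gene of a microRNA, and LINC02331 is an intergenic transcript whose role is not well known.

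The sequences that set NORAD, MALAT1, NEAT1 and MIR663AHG apart were read from the reference. The Pumilio motif was searched as TGTANATA on the sense strand of the transcript, where N is any base. NORAD-201, a single-exon transcript of 5401 bases on chromosome 20 (hg38, 36045618 to 36051018, minus strand), held 15 matches between its positions 819 and 4657. Of 5072 genes with an annotated transcript at least as long, 38.5% held a match in the first 5401 bases of their longest transcript, and 0.0591% (3 genes, NORAD among them) held 15 or more. In 3 places a second match began 9 bases after the first, and these windows of 30 bases are shown 5′ to 3′ as DNA with the matches in capitals.
NORAD, hg38 chr20:36049496-36049525, minus strand: tatctgTGTATATAgTGTACATAaaggaca
NORAD, hg38 chr20:36048299-36048328, minus strand: ctatacTGTATATAtTGTATATAtaacgga
NORAD, hg38 chr20:36047663-36047692, minus strand: gtgctgTGTATATAgTGTATATAagcggac
The other members held 6 matches (the 22743 bases of NEAT1-202), 9 (the 91667 bases of KCNQ1OT1) and 0 (MALAT1-202, MIR663AHG-223 and the LINC02331 transcript). A match is a description of letters and not a measured binding site.

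MALAT1 and the long form of NEAT1 end without a poly(A) tail: the precursor is cut by RNase P and the end is protected by a triple helix formed by U-rich and A-rich stretches. Both windows below are 100 bases of the sense strand. The MALAT1 window, read from MALAT1-202 at 10434 bases in GENCODE 44 where the deposited tables hold a version of 8708 bases, ends 6 bases after the longest run of A, which is 13 bases long, and the NEAT1 window is the end of NEAT1-202. Capitals mark every run of 10 or more bases that occurs in both windows, and 27 of the 100 bases of each window fall in 2 such runs, 1 rich in T and 1 rich in A.
MALAT1, hg38 chr11:65506017-65506116, plus strand: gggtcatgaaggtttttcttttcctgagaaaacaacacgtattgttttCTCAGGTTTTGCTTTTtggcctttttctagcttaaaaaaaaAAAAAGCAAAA
NEAT1, hg38 chr11:65445441-65445540, plus strand: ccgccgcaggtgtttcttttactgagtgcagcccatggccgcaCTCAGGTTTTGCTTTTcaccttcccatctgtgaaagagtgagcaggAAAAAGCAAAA

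MIR663AHG contains the gene of hsa-miR-663a, shown as its mature RNA of 22 bases from RefSeq with the seed, bases 2 to 8, in capitals.
hsa-miR-663a, GRCh38.p14 chr20:26208243-26208264, minus strand: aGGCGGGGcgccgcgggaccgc
The mature microRNA is too short for these libraries and was not measured. Its position lies within the span of MIR663AHG-223, in an intron, and outside the 4 exons of that transcript.

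The libraries held 10087925 to 21138886 assigned fragments. Levels are given as CPM, a gene's counts relative to the library total, scaled by the trimmed mean of M values (TMM), which assumes that most genes do not change. They are shares of a library and not amounts per cell. In such bulk libraries fewer cells with a transcript and less transcript per cell cannot be told apart. The RPL3 values went against the label, since RPL3 was not lower in the libraries labelled RPL3 KO: it was at 1138 ± 15.3 CPM (SD, n = 3) and 1242 ± 82.5 CPM with vehicle in HCT 116p53-/- and in the RPL3 KO-labelled libraries. The 10 mesenchymal markers summed to 52.5 to 94.5 CPM over the HCT 116p53-/- libraries and to 2536 to 2874 CPM over the RPL3 KO-labelled libraries, and the 11 colon epithelium markers to 2479 to 2813 and 1591 to 1983 CPM. The 5 leukocyte markers summed to 0.965 to 9.14 CPM. The mitochondrial share was 7.98% to 12.2% in HCT 116p53-/- and 4.57% to 9.83% in the RPL3 KO-labelled libraries, and in both lines it was higher with Act D. Of 12 RNAs that carry no poly(A) tail, 9 were above 1 CPM in every library, and the 12 took 9.11%, 8.47%, 11.9% and 11% of the counts in HCT 116p53-/- with vehicle and Act D and in RPL3 KO-labelled libraries with vehicle and Act D. These shares moved with the line as several members did, and their part in the members' differences was not tested.

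The members covered more than 3 orders of magnitude in level per transcript length. On the deposited TPM scale, which divides counts by transcript length, HCT 116p53-/- with vehicle held MALAT1 at 574 ± 94.3 TPM, PVT1 at 119 ± 28.0, NORAD at 41.8 ± 6.06, MIR663AHG at 18.5 ± 17.9, LINC02331 at 7.39 ± 0.875, NEAT1 at 4.90 ± 1.77 and KCNQ1OT1 at 0.367 ± 0.0208 (SD, n = 3). NORAD, MIR663AHG, LINC02331 and NEAT1 overlapped with their neighbours in this order, while MALAT1, PVT1 and KCNQ1OT1 did not overlap with the members next to them. In the RPL3 KO-labelled libraries with vehicle the order was MALAT1 (280 ± 78.9 TPM), NORAD (33.2 ± 5.85), MIR663AHG (14.3 ± 16.1), PVT1 (12.7 ± 3.04), NEAT1 (7.30 ± 2.13), KCNQ1OT1 (0.590 ± 0.176) and LINC02331 (0.0233 ± 0.0252). PVT1 thus stood above NORAD in HCT 116p53-/- and below it in the other line, and LINC02331 went from the middle of the order to its lowest place. With Act D the members from NORAD to NEAT1 overlapped in the RPL3 KO-labelled libraries and no neighbours overlapped in HCT 116p53-/-.

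**Figure D1:**
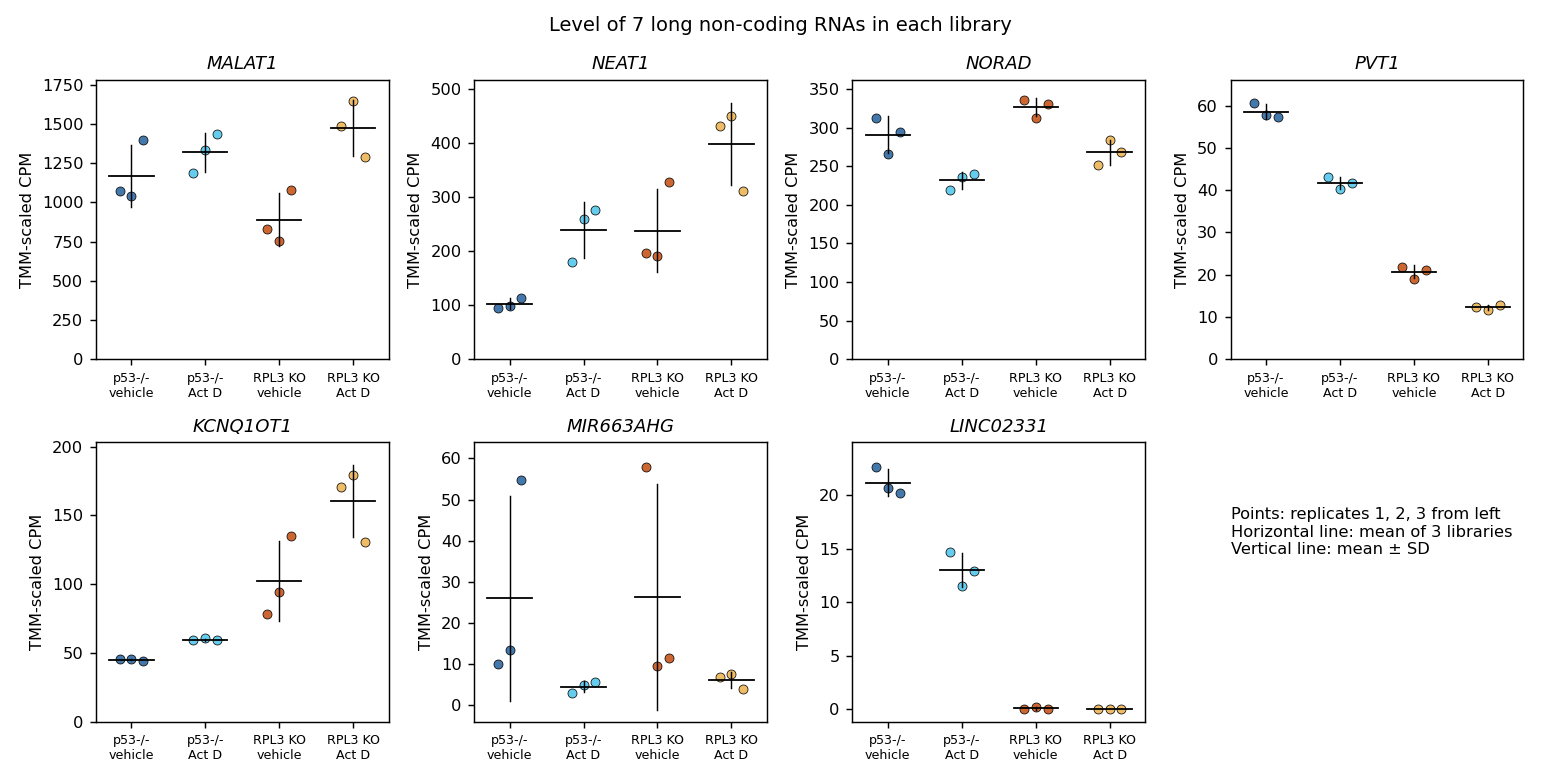
TMM-scaled CPM (vertical axis, linear) of each of the 7 RNAs in the 12 libraries, with the 4 groups on the horizontal axis. Points are replicates 1 to 3 from left to right, horizontal lines the mean of 3 libraries and vertical lines the mean ± SD. NEAT1 and KCNQ1OT1 are lowest in HCT 116p53-/- with vehicle and highest in the RPL3 KO-labelled libraries with Act D, PVT1 steps down, LINC02331 is near 0 in the 6 RPL3 KO-labelled libraries, and MIR663AHG has 1 library far above its group in each line.

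For the 5 members that were not picked on their values, 4 comparisons were fitted with edgeR's quasi-likelihood test across all 15692 genes. These 5 were picked by name with earlier results of these data known, so their counts beside all genes are descriptions. Between the lines with vehicle, NEAT1 and KCNQ1OT1 were higher and PVT1 and MALAT1 lower in the RPL3 KO-labelled libraries, which makes 4 of 5 past an adjusted p of 0.05, where 71.3% of all genes tested passed (35.1% higher and 36.2% lower). The groups did not overlap for 3 of the 5, against 72.5% of all genes. Between the lines with Act D, NEAT1, KCNQ1OT1 and NORAD were higher and PVT1 was lower, again 4 of 5, where 70.4% of all genes passed (35.1% higher and 35.3% lower), and the groups did not overlap for 4 of the 5, against 74.1%. Most genes differed between the lines, so these counts do not set the members apart. With Act D in HCT 116p53-/-, NEAT1 rose and NORAD and PVT1 fell, 3 of 5, where 18.7% of all genes passed (7.59% higher and 11.1% lower), and the groups did not overlap for 4 of the 5, against 38.2%. With Act D in the RPL3 KO-labelled libraries MALAT1, NEAT1 and KCNQ1OT1 rose and NORAD and PVT1 fell, 5 of 5, where 11.9% of all genes passed (3.51% higher and 8.4% lower), and the groups did not overlap for 3 of the 5, against 27.6%. Among the 1614 annotated lncRNA genes that were tested, 55.2% and 52.0% passed between the lines with vehicle and Act D, and 6.44% and 5.27% with Act D in HCT 116p53-/- and in the RPL3 KO-labelled libraries. The 2 line comparisons share no library, but each of the 4 groups enters a line comparison and an Act D comparison.

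**Figure D2:**
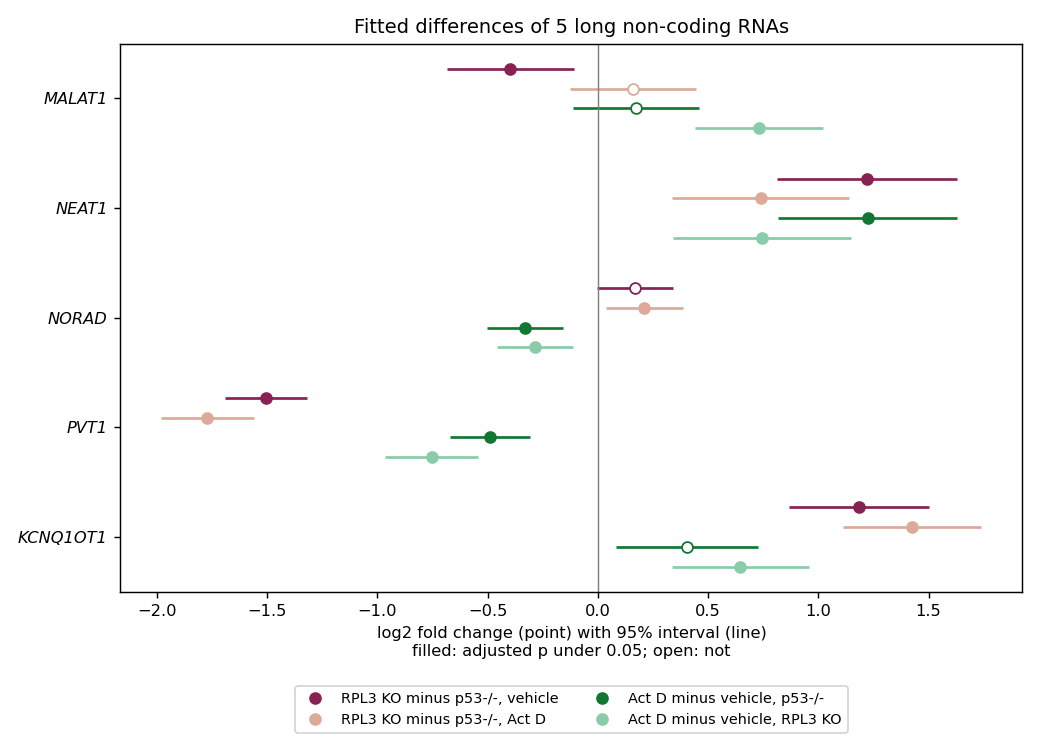
Fitted log2 fold changes (horizontal axis) of the 5 members not picked on their values (vertical axis), with lines for the 95% interval. Purple and pink are line differences, RPL3 KO-labelled minus HCT 116p53-/-, and dark and light green are Act D minus vehicle. Filled points passed an adjusted p of 0.05; NEAT1 is right of 0 and PVT1 left of 0 in all 4 comparisons.

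MALAT1 (ENSG00000251562, hg38 chromosome 11, 65497640 to 65508073, plus strand) was the most abundant member in every group. Its level was 1070, 1041 and 1399 CPM in HCT 116p53-/- with vehicle, 1186, 1336 and 1437 CPM with Act D, 831, 756 and 1079 CPM in the RPL3 KO-labelled libraries with vehicle and 1487, 1645 and 1289 CPM with Act D. In the RPL3 KO-labelled libraries all 3 Act D libraries lay above all 3 vehicle libraries, whereas in HCT 116p53-/- the treatments overlapped. MALAT1 rose with Act D in the RPL3 KO-labelled libraries by 0.73 ± 0.137 (log2, SE; adjusted p = 0.00166), a 1.66-fold change. In HCT 116p53-/- the fitted difference was 0.17 ± 0.136 (adjusted p = 0.423), with a 95% interval from -0.113 to 0.46. With vehicle MALAT1 was 1.32-fold lower in the RPL3 KO-labelled libraries (log2 -0.40 ± 0.136, adjusted p = 0.0148), although the groups overlapped. That call was lost without HCT 116p53-/- vehicle replicate 3 (log2 -0.25, adjusted p = 0.106) or without RPL3 KO vehicle replicate 2 (log2 -0.29, adjusted p = 0.0803). With Act D the line difference was 0.16 ± 0.136 (adjusted p = 0.307), and it changed sign, to -0.09, when libraries were scaled by their size alone. With limma on log2 TPM, which divides by the estimated mean length, this line difference was called in the opposite direction (-0.77, adjusted p = 0.00797), and the rise with Act D in the RPL3 KO-labelled libraries was no longer called (0.42, adjusted p = 0.421). The median of all genes on that scale was -0.37 between the lines with Act D.

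NEAT1 (ENSG00000245532, chromosome 11, 65422774 to 65445540, plus strand), which lies upstream of MALAT1 on the same strand, rose with Act D in both lines. It was at 94.8, 97.5 and 114 CPM in HCT 116p53-/- with vehicle and at 180, 260 and 276 CPM with Act D. It was at 196, 190 and 328 CPM in the RPL3 KO-labelled libraries with vehicle and at 432, 451 and 312 CPM with Act D. HCT 116p53-/- vehicle libraries were thus the lowest 3 of all 12, and only in the RPL3 KO-labelled libraries did the treatments overlap, where the highest vehicle library exceeded the lowest Act D library. The rise was 2.34-fold in HCT 116p53-/- (log2 1.22 ± 0.194, adjusted p = 0.000237) and 1.67-fold in the RPL3 KO-labelled libraries (log2 0.74 ± 0.191, adjusted p = 0.0156). The latter call was lost when RPL3 KO vehicle replicate 1 or 2 or RPL3 KO Act D replicate 1 or 2 was left out, with log2 values of 0.62, 0.60, 0.68 and 0.62 and adjusted p of 0.0694, 0.0702, 0.0658 and 0.0731. Without RPL3 KO vehicle replicate 3 the rise was 1.04 (adjusted p = 0.000773). NEAT1 was also higher in the RPL3 KO-labelled libraries, 2.33-fold with vehicle (log2 1.22 ± 0.194, adjusted p = 2.09e-05) and 1.67-fold with Act D (log2 0.74 ± 0.191, adjusted p = 0.00218). With limma on log2 TPM all 4 NEAT1 differences kept their direction and none was called (0.54 and 0.40 between the lines, 0.63 and 0.49 with Act D, adjusted p of 0.111, 0.23, 0.249 and 0.481).

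NEAT1 is made as a short polyadenylated form and a long form that begins at the same place, so most reads of the short form also match the long one and their split is an estimate. In HCT 116p53-/- vehicle replicate 2, the library for which transcript values were used, the long NEAT1-202 (22743 bases) took 98.9% of NEAT1's counts and 88.96% of its TPM. RSEM, the program that assigned the reads, also gives each gene a mean transcript length weighted by abundance, which follows this mix in every library. For NEAT1 this length was 16863, 20466 and 12676 bases in HCT 116p53-/- with vehicle and 22234, 22743 and 22147 bases with Act D. All 3 Act D libraries lay above the vehicle libraries and close to the length of the long form alone. In the RPL3 KO-labelled libraries it was 15938, 17029 and 18964 bases with vehicle and 21177, 16589 and 20902 bases with Act D, and these overlapped. An exact two-sided permutation test gave p = 0.1 for HCT 116p53-/-, the smallest that 3 against 3 libraries allow, and p = 0.3 for the RPL3 KO-labelled libraries, or 0.24 and 0.45 after adjustment over 12 such tests. MALAT1's mean length lay between 1633 and 1720 bases in HCT 116p53-/- in all 6 libraries. It was 1677, 1981 and 1968 bases in the RPL3 KO-labelled libraries with vehicle and 2169, 2096 and 2271 bases with Act D (exact permutation p = 0.1 for the Act D difference, adjusted 0.24), again without overlap.

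**Figure D3:**
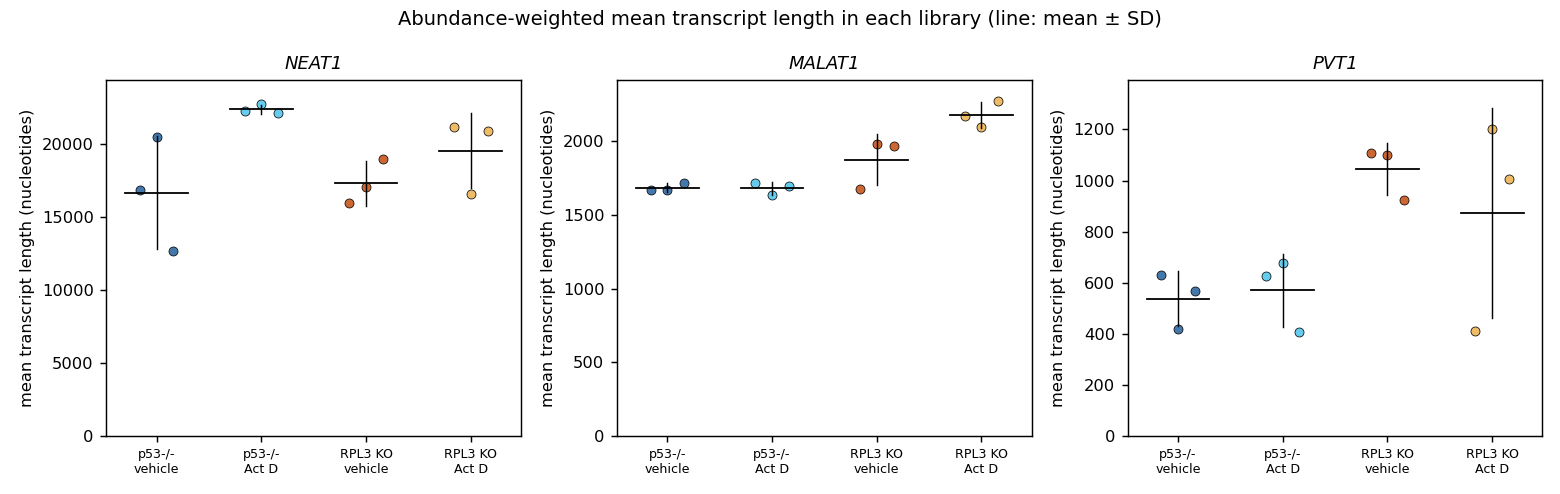
Abundance-weighted mean transcript length in nucleotides (vertical axis) of NEAT1, MALAT1 and PVT1 in each library, by group (horizontal axis). Points are replicates, horizontal lines means of 3 and vertical lines ± SD. The 3 Act D libraries of HCT 116p53-/- lie between 22147 and 22743 nucleotides for NEAT1, and its vehicle libraries between 12676 and 20466.

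MALAT1, NEAT1 and KCNQ1OT1 also varied together between replicates of a group. RPL3 KO vehicle replicate 3 was the highest of its group for all 3 RNAs, and RPL3 KO Act D replicate 3 the lowest of its group for all 3. After the group means were subtracted from log2 CPM, Pearson's r over the 12 libraries was 0.894 for MALAT1 with NEAT1 (Spearman 0.881), 0.775 for NEAT1 with KCNQ1OT1 (0.601) and 0.635 for MALAT1 with KCNQ1OT1 (0.517). Without the 2 libraries farthest out for the first-named RNA these r were 0.888, 0.763 and 0.537. For NORAD with the same 3 RNAs r was 0.405, 0.298 and 0.013. The points share libraries and scaling, so these values are descriptions. The mitochondrial share in the RPL3 KO-labelled replicates 1, 2 and 3 was 4.57%, 5.48% and 6.28% with vehicle and 9.83%, 7.10% and 7.71% with Act D, and its part in the shared variation was not tested.

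The proteins that work with MALAT1 and NEAT1 were read from 2 lists. All 30 listed paraspeckle proteins were tested. With Act D in HCT 116p53-/- 4 were higher and 3 lower (median log2 of the list -0.04, of all genes 0.02), where 7.59% and 11.1% of all genes were. Among the 30 were AKAP8L (0.63, adjusted p = 0.000214), HNRNPR (-0.55, adjusted p = 0.000162) and RBM4B (0.46, adjusted p = 0.0084). In the RPL3 KO-labelled libraries 2 were higher and 4 lower (median -0.02, all genes 0.03), where 3.51% and 8.4% of all genes were. RBM14 fell by 0.63 (adjusted p = 0.000508), RBM12 by 0.58 and PSPC1, a core paraspeckle protein that pairs with NONO and SFPQ, by 0.58 (both adjusted p = 0.000243). PSPC1 also fell by 0.35 in HCT 116p53-/- (adjusted p = 0.00899), so its RNA was lower with Act D in both lines. The RNAs of its partners NONO (log2 0.04 and 0.06) and SFPQ (-0.05 and -0.28) were not called with Act D in either line. Protein was not measured. Between the lines 11 were higher and 7 lower with vehicle, and 9 higher and 10 lower with Act D, where 71.3% and 70.4% of all genes were called. DAZAP1, an RNA-binding protein, was the most changed with vehicle (log2 1.29, adjusted p = 2.01e-10).

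A list of 16 genes linked to the ends of MALAT1 and NEAT1 held subunits of RNase P and the RNase Z genes ELAC1 and ELAC2. In the RPL3 KO-labelled libraries 5 were higher and 9 lower with each treatment (median log2 -0.37 with vehicle and -0.48 with Act D, against -0.02 for all genes in both). Of all genes 71.3% and 70.4% were called, in about equal shares higher and lower. POP1, the large protein subunit of RNase P and RNase MRP, was at 114 and 39.8 CPM with vehicle (log2 -1.52, adjusted p = 3.2e-10). ELAC1, an RNase Z, was at 6.56 and 2.31 CPM (log2 -1.53, adjusted p = 2.86e-05), and ELAC2 at 153 and 83.5 CPM (log2 -0.88, adjusted p = 3.69e-08). RPP25, another protein subunit of RNase P, went the other way, from 7.31 to 49.5 CPM (log2 2.76, adjusted p = 2.02e-12). RPPH1, the RNA subunit of RNase P, was at 7947 ± 615 and 14550 ± 2670 CPM. METTL16, which binds the MALAT1 triple helix, fell with Act D in HCT 116p53-/- by 0.28 (adjusted p = 0.0171) and in the RPL3 KO-labelled libraries by 0.59 (adjusted p = 9.9e-05). With Act D 2 of the 16 were higher and 1 was lower in HCT 116p53-/-, and 2 were lower in the RPL3 KO-labelled libraries, METTL16 and RPP25. Of all genes, 18.7% and 11.9% were called in these 2 comparisons.

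Of the protein-coding genes within 250 kb of MALAT1, 18 were tested. FRMD8, which lies 9.25 kb from NEAT1, went from 65.2 ± 15 to 37.8 ± 1.62 CPM with Act D in the RPL3 KO-labelled libraries (log2 -0.78, adjusted p = 0.000838). In that line FRMD8 fell where NEAT1 and MALAT1 rose, and in HCT 116p53-/- it was at 63.5 ± 8.95 and 58.0 ± 1.47 CPM (adjusted p = 0.538). Between the lines with vehicle 10 of the 18 were higher and 1 lower, where 35.1% and 36.2% of all genes were, led by POLA2, a subunit of DNA polymerase alpha (log2 1.41, adjusted p = 3.67e-06), and RNASEH2C, a subunit of RNase H2 (log2 1.40, adjusted p = 1.42e-08).

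NORAD (ENSG00000260032), whose Pumilio motifs are shown above, fell with Act D in both lines. It was at 314, 266 and 295 CPM in HCT 116p53-/- with vehicle and at 219, 236 and 240 CPM with Act D. In the RPL3 KO-labelled libraries it was at 337, 313 and 331 CPM with vehicle and 252, 284 and 269 CPM with Act D. In both lines every Act D library was below every vehicle library. The fall was 1.26-fold in HCT 116p53-/- (log2 -0.33 ± 0.0821, adjusted p = 0.00895) and 1.22-fold in the RPL3 KO-labelled libraries (log2 -0.29 ± 0.0822, adjusted p = 0.0302). The first call was lost without HCT 116p53-/- Act D replicate 1 (log2 -0.29, adjusted p = 0.0622). The second was lost without RPL3 KO vehicle replicate 1 or 3 or Act D replicate 1 or 3, with log2 values of -0.27, -0.28, -0.245 and -0.32 and adjusted p of 0.0703, 0.0695, 0.125 and 0.0558. It was also lost with upper-quartile scaling (adjusted p = 0.0848) and with only these groups in the fit (adjusted p = 0.0535), and with limma on log2 TPM both Act D calls were lost (adjusted p of 0.194 and 0.298). Between the lines NORAD's sign depended on the scaling: it was higher in the RPL3 KO-labelled libraries by 0.17 ± 0.0818 with vehicle (adjusted p = 0.0777) and by 0.21 ± 0.0824 with Act D (adjusted p = 0.0303), and lower by library size alone, at log2 -0.075 and -0.039. The line difference with vehicle passed without HCT 116p53-/- vehicle replicate 1 (0.22, adjusted p = 0.036). The one with Act D was lost without any 1 of the 3 HCT 116p53-/- Act D libraries or without RPL3 KO Act D replicate 2 or 3, with log2 values of 0.14 to 0.22, and without a filter on low counts (0.18, adjusted p = 0.165). With limma on log2 TPM the line differences were -0.33 and -0.31 (adjusted p of 0.0745 and 0.0969). On that scale the median of all genes was -0.36 and -0.37 in these comparisons, and NORAD's length was 5401 bases in every library.

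PUM2, which encodes a Pumilio protein, fell with Act D too. It fell by 0.35 in HCT 116p53-/- (from 113 to 88.6 CPM, adjusted p = 0.0244) and by 0.47 in the RPL3 KO-labelled libraries (from 80.9 to 58.4 CPM, adjusted p = 0.00657). In the 8-gene list of NORAD partners 2 fell with Act D in each line, PUM2 among them, where 11.1% and 8.4% of all genes fell. In HCT 116p53-/- CDC5L, a splicing factor, rose by 0.27 (adjusted p = 0.0435). PUM2 was also lower in the RPL3 KO-labelled libraries with vehicle (log2 -0.48, adjusted p = 0.000404) as 1 of 2 in the list, and 5 of 8 were lower with Act D. Of all genes, 36.2% were lower with vehicle and 35.3% with Act D. Of 5 protein-coding genes within 250 kb of NORAD, PHF20, a chromatin protein 95.2 kb away, fell with Act D in HCT 116p53-/- from 37.7 ± 3.52 to 22.5 ± 1.70 CPM (adjusted p = 8.2e-05) and was at 25.5 ± 2.49 and 27.2 ± 1.44 CPM in the other line (adjusted p = 0.646).

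KCNQ1OT1 (ENSG00000269821, chromosome 11, 2597308 to 2700003, minus strand) was higher in the RPL3 KO-labelled libraries and highest there with Act D. It was at 45.4, 45.5 and 44.4 CPM in HCT 116p53-/- with vehicle and at 59.4, 60.6 and 59.1 CPM with Act D. In the RPL3 KO-labelled libraries it was at 78.4, 94.0 and 135 CPM with vehicle and 171, 179 and 131 CPM with Act D. The 3 replicates of each HCT 116p53-/- group nearly coincided, and in the other line the treatments overlapped in 1 pair of libraries. The line difference was 2.27-fold with vehicle (log2 1.18 ± 0.151, adjusted p = 1.57e-06) and 2.69-fold with Act D (log2 1.43 ± 0.151, adjusted p = 1.56e-07). With Act D KCNQ1OT1 rose by 0.65 ± 0.147 in the RPL3 KO-labelled libraries (adjusted p = 0.00722). In HCT 116p53-/- the difference was 0.40 ± 0.152 and missed the threshold (adjusted p = 0.0745) although the groups did not overlap. It passed by DESeq2 (adjusted p = 0.0326), by edgeR's likelihood-ratio test (0.0477), without a filter on low counts (0.00338) and with these 2 groups alone in the fit (0.00143). With limma on log2 TPM the line difference with vehicle (0.32, adjusted p = 0.0707) and the rise in the RPL3 KO-labelled libraries (0.34, adjusted p = 0.299) were not called. That fit added 0.5 to each TPM before the log. KCNQ1OT1's group means were 0.367 to 0.877 TPM, so its differences are compressed on that scale.

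Whether the libraries kept strand is not given in the sources used here, so reads from KCNQ1 introns cannot be told apart from KCNQ1OT1, which was counted as 1 unspliced transcript of 91667 bases. KCNQ1, a potassium channel gene on the opposite strand, was at 3.47 ± 0.891 CPM in HCT 116p53-/- with vehicle and at 0.0392 ± 0.035 CPM in the RPL3 KO-labelled libraries (adjusted p = 1.61e-08). The spliced host gene thus moved against KCNQ1OT1. Of 13 genes of the imprinted domain and the adjoining IGF2 and H19 domain, 11 were tested. With vehicle 6 were higher and 3 lower in the RPL3 KO-labelled libraries (median log2 0.65, all genes -0.02), where 35.1% and 36.2% of all genes were. CDKN1C, a cyclin-dependent kinase inhibitor that KCNQ1OT1 is known to silence in cis, was at 2.95 ± 0.497 CPM in HCT 116p53-/-, and in the RPL3 KO-labelled libraries between 15.1 and 15.8 CPM (log2 2.39, adjusted p = 1.55e-09). CDKN1C and KCNQ1OT1 were thus both higher in that line. H19, an imprinted RNA, was at 3.88 and 0.200 CPM (adjusted p = 5.15e-08), and IGF2, its growth factor neighbour, was higher in the RPL3 KO-labelled libraries with Act D by 2.22 (adjusted p = 3.3e-10). With Act D in HCT 116p53-/- CDKN1C rose by 0.75 (adjusted p = 0.0132) and PHLDA2, a growth-restricting gene of the domain, by 0.63 (adjusted p = 0.00859). These were the 2 of 11 that passed, where 18.7% of all genes did. In the RPL3 KO-labelled libraries TSSC4 fell by 0.69 (adjusted p = 0.00198) and CARS1 by 0.69 (adjusted p = 5.3e-05).

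PVT1 (ENSG00000249859, chromosome 8, 127794526 to 128187101, plus strand) fell with Act D in both lines and was lower in the RPL3 KO-labelled libraries. It was at 60.6, 57.8 and 57.4 CPM in HCT 116p53-/- with vehicle and at 43.2, 40.3 and 41.7 CPM with Act D. In the RPL3 KO-labelled libraries it was at 21.8, 19.01 and 21.2 CPM with vehicle and 12.4, 11.5 and 12.8 CPM with Act D. None of the 4 groups overlapped with another, and within a group the replicates lay within a few CPM of each other. The fall with Act D was 1.40-fold in HCT 116p53-/- (log2 -0.49 ± 0.0859, adjusted p = 0.000603) and 1.69-fold in the RPL3 KO-labelled libraries (log2 -0.75 ± 0.101, adjusted p = 9.8e-05). The line difference was 2.84-fold with vehicle (log2 -1.51 ± 0.0896, adjusted p = 5.56e-11) and 3.41-fold with Act D (log2 -1.77 ± 0.0984, adjusted p = 2.56e-11). These 4 calls held in every count-based alternative and without each library in turn, with line differences between -2.01 and -1.44. With limma on the TPM scale, which divides by the estimated mean length, the line differences were -3.19 and -2.87, and both Act D calls were lost (-0.63, adjusted p = 0.465, and -0.31, adjusted p = 0.83).

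MYC, the transcription factor gene 51.6 kb from PVT1 and the one protein-coding gene within 250 kb, had a larger fitted line difference than PVT1. It was at 385 ± 9.67 CPM in HCT 116p53-/- and at 15.3 ± 1.25 CPM in the RPL3 KO-labelled libraries with vehicle (log2 -4.66, adjusted p = 5.56e-17). With Act D MYC fell by 0.27 in HCT 116p53-/- (adjusted p = 0.0192), and in the RPL3 KO-labelled libraries it was at 16.3 ± 1.17 CPM (log2 0.10, adjusted p = 0.573), where PVT1 fell. Of 8 genes of the MYC network 3 were higher and 3 lower between the lines with vehicle, where 35.1% and 36.2% of all genes were. MXD1, an antagonist of MYC, was at 3.10 and 34.0 CPM (log2 3.46, adjusted p = 3.42e-12). MXI1, another antagonist, was at 33.5 and 18.5 CPM (log2 -0.85, adjusted p = 9.24e-05). With Act D MXD1 rose in HCT 116p53-/- by 0.82 (adjusted p = 0.00638), and with MYC it made the 2 of 8 that passed there, where 18.7% of all genes did. PVT1 has 182 annotated transcripts, of which 60 held at least 1 count in the library with transcript values, and PVT1-365 (456 bases) took 30.1% of the gene's counts. Its mean transcript length was 628, 418 and 567 bases in HCT 116p53-/- with vehicle and 1109, 1100 and 926 bases in the RPL3 KO-labelled libraries (exact permutation p = 0.1, adjusted 0.24). With Act D the lines overlapped in this length (means 569 and 873 bases, exact permutation p = 0.3, adjusted 0.45).

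**Figure D4:**
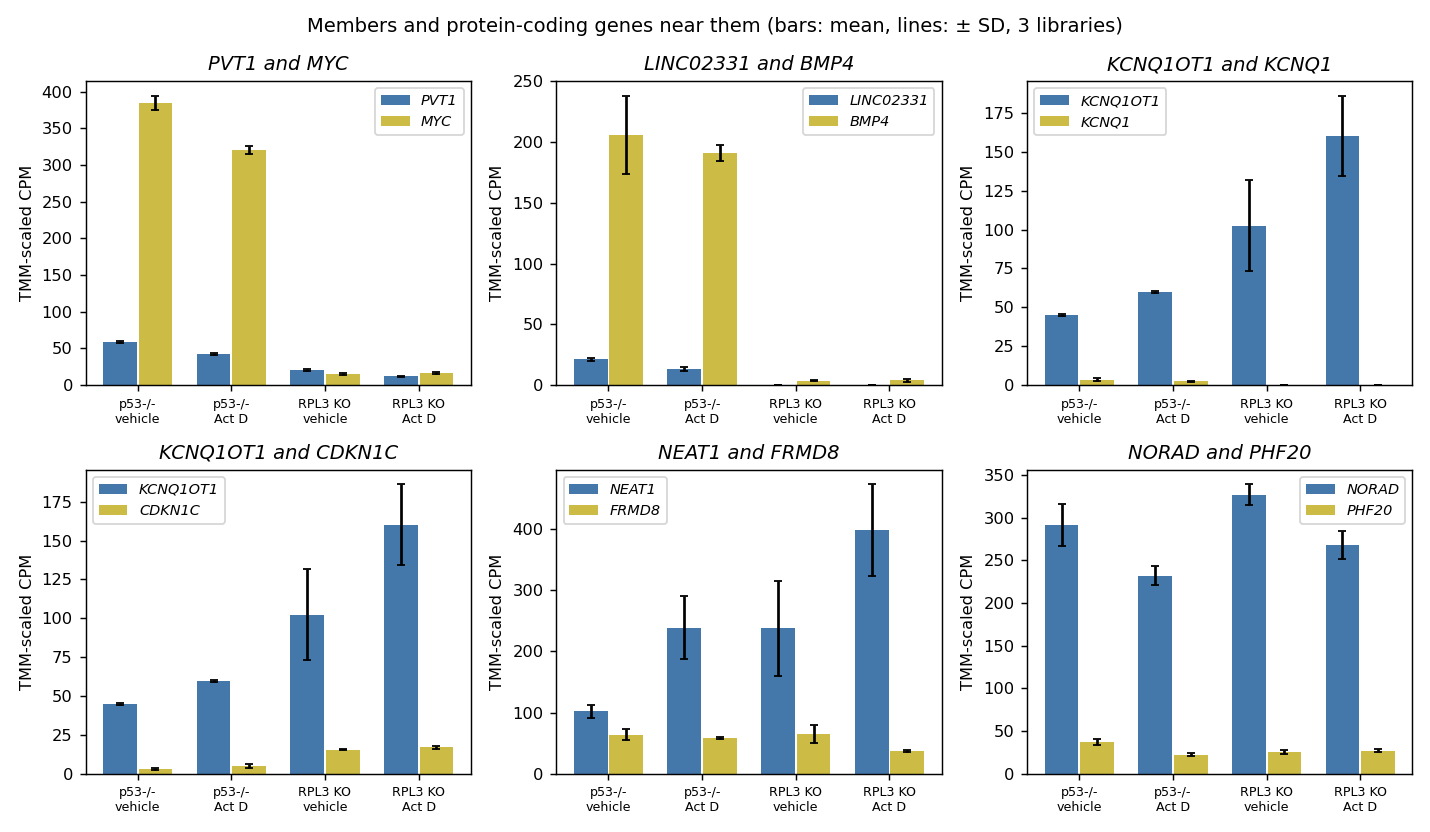
Mean TMM-scaled CPM (vertical axes, linear from 0; lines ± SD of 3 libraries) of 5 members (blue) and a protein-coding gene near or overlapping each (yellow) in the 4 groups (horizontal axis). PVT1 and MYC, and LINC02331 and BMP4, are both lower in the RPL3 KO-labelled libraries, while KCNQ1OT1 is higher where KCNQ1 is near 0.

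LINC02331 (ENSG00000235269, chromosome 14, 53685139 to 53850882, minus strand) was picked for its near absence from 1 line. It was at 22.6, 20.7 and 20.2 CPM in HCT 116p53-/- with vehicle, from 349, 299.9 and 335 counts, and at 14.7, 11.5 and 12.9 CPM with Act D, from 236, 170 and 161 counts. In the RPL3 KO-labelled libraries it had 1, 5 and 0 counts with vehicle and 0 in all 3 libraries with Act D. With vehicle, 6 counts against 984, summed over the 3 libraries of each group, put the RPL3 KO-labelled level at 0.60% of that in HCT 116p53-/-. LINC02331 was picked on these values, so this is a description. With Act D, 0 counts stood against 567. A floor of 3 counts over that group would stand 136-fold below HCT 116p53-/- with Act D. In HCT 116p53-/- every Act D library was below every vehicle library. BMP4, a signalling protein of the bone morphogenetic family and the one protein-coding gene within 250 kb (98.9 kb away), was at 206 ± 32.4 and 3.65 ± 0.710 CPM with vehicle (log2 -5.81, adjusted p = 2.89e-15). BMP4 was at 191 ± 6.56 CPM in HCT 116p53-/- with Act D (adjusted p = 0.573), where LINC02331 was lower than with vehicle. The lncRNA ENSG00000237356 overlaps LINC02331 on the opposite strand and was at 2.12 ± 0.565 and 0.394 ± 0.150 CPM with vehicle in the 2 lines.

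MIR663AHG (ENSG00000227195, chromosome 20, 26167817 to 26251546, minus strand) was picked because 1 vehicle library in each line stood far above the others. It was at 9.85, 13.4 and 54.8 CPM in HCT 116p53-/- with vehicle, from 152, 194 and 907 counts, and at 2.87, 4.94 and 5.47 CPM with Act D. In the RPL3 KO-labelled libraries it was at 57.9, 9.46 and 11.5 CPM with vehicle, from 721, 189 and 170 counts, and at 6.69, 7.54 and 3.83 CPM with Act D. HCT 116p53-/- vehicle replicate 3 was thus 4.10-fold above the next of its group and RPL3 KO vehicle replicate 1 was 5.05-fold above, while in both lines every Act D library was below every vehicle library. With all libraries the log2 ratio of the means, Act D to vehicle, was -2.555 in HCT 116p53-/- and -2.13 in the RPL3 KO-labelled libraries. Without the high library of each line the vehicle means were 11.6 ± 2.48 and 10.5 ± 1.43 CPM (SD, n = 2) and the ratios -1.39 and -0.80. Of 10867 genes at a mean of 5 CPM or more, 15 were at least 2-fold above the next of the group in the first of these libraries and 30 in the second. Only MIR663AHG and RPL3P4 were so in both. These 2 libraries were set by MIR663AHG's own values, so its place here was fixed by the choice and does not measure how rare the pattern is. RPL3P4 is a processed pseudogene of RPL3, whose reads are hard to tell from those of RPL3 itself. MIR663AHG has 146 annotated transcripts, and 2 of them held reads in the library with transcript values, MIR663AHG-223 (1226 bases) with 94.3% of the counts. RSEM's posterior SD was at most 0.56 counts for this gene. No protein-coding gene in the tables lies within 250 kb.

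Whether the lines responded differently to Act D was tested directly with an interaction term. By edgeR 0 of 5 members passed, where 6.53% of all genes and 2.04% of lncRNA genes did. MALAT1 was nearest: its rise was larger in the RPL3 KO-labelled libraries by 0.56 ± 0.193 (unadjusted p = 0.0101, adjusted p = 0.0952), and it was the 1 of 5 with an unadjusted p under 0.05. Without a filter on low counts 2 of 5 passed, MALAT1 (0.52, adjusted p = 0.00536) and NEAT1 (-0.51, adjusted p = 0.00869), where 1370 of 33990 genes did. That setting gave some abundant members far smaller p-values at an unchanged difference. NEAT1's line difference with vehicle went from an adjusted p of 2.09e-05 to 1.6e-33, at log2 1.22 in both. MALAT1 also passed by DESeq2 (0.55, adjusted p = 0.0392) and without RPL3 KO vehicle replicate 3 (0.71, adjusted p = 0.026). The difference was -0.48 ± 0.27 for NEAT1 (adjusted p = 0.324), -0.27 ± 0.133 for PVT1 (adjusted p = 0.26), 0.24 ± 0.211 for KCNQ1OT1 (adjusted p = 0.553) and 0.04 ± 0.116 for NORAD (adjusted p = 0.877). The 95% intervals ran from -1.05 to 0.0884 for NEAT1 and from -0.201 to 0.288 for NORAD.

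The genes most like each member were found among the other 10866 genes at 5 CPM or more, by Pearson's r of log2 CPM over the 12 libraries. PVT1 was nearest to PRKX (0.996), ZNF544 and FOXK2, and 1518 genes had an r above 0.9 with it. LINC02331 was nearest to PDE4B (0.995), NUP133 and EZR, with 2145 such genes, and KCNQ1OT1 to SEMA6A (0.988), PDK3 and the lncRNA OLMALINC, with 854. These 3 members did not overlap between the lines, as was so for 72.5% of all genes with vehicle. NORAD was nearest to MKLN1 (0.977), ENSG00000241978 and RASAL2, with 47 such genes, and NEAT1 to AHCYL1 (0.964), CBX5 and DYRK3, with 22. MALAT1 had 2, the mitochondrial gene MT-ATP8 (0.909) and FBXO38-DT (0.906), followed by LINC00863, and MIR663AHG had 0, its nearest being SKI (0.899), ZFAND3 and CTPS1. After the group means were subtracted the nearest genes were CHD6 for MALAT1 (0.926), NFIA for NEAT1 (0.941), DBT for NORAD (0.947), SLC46A1 for PVT1 (0.952), MYO5B for KCNQ1OT1 (0.958), EP400 for MIR663AHG (0.969) and SKIC8 for LINC02331 (0.952). All genes share the 12 libraries and their scaling, and these r are descriptions.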

How the data were processed

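Per the labels, total RNA was made into libraries with a TruSeq RNA kit and sequenced in pairs. With RSEM 1.2.25 and an Ensembl annotation of hg38, the authors deposited expected counts and TPM, per gene for 11 libraries and per transcript for 1. The deposited TPM and the transcripts' percent of gene TPM (IsoPct) were used as given. For that library, transcripts were summed per gene. Of 60617 identifiers 60261 matched GENCODE 44. Expected counts were rounded, filtered with filterByExpr (15692 genes kept) and tested with edgeR 4.0.16 (TMM, quasi-likelihood, all 12 libraries in 4 groups, Benjamini-Hochberg over all genes, R 4.3.3). DESeq2 1.42.0, limma 3.58.1 on log2(TPM + 0.5) and other scalings, filters and sample sets were alternatives. Mean lengths were compared by exact permutation. Totals of 10087925 to 21138886 set the precision. Intervals from the edgeR fit include the spread between replicates, and no interval is given for LINC02331.

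The members and lists were chosen with earlier results of these data known. Named were all members, RPL3, up to 3 neighbours within 250 kb per member by size of change, the most changed called genes of each list, and the 3 genes most like each member. RPL3P4 was named after its values were seen, and some genes are not reported here. The replicates are labelled biological; where they were not separate cultures, p-values measure only the spread between samples.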

Additional observations from a re-analysis of the deposited data

How the results depend on the processing

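PVT1 kept its direction and its call in all 4 pairwise comparisons under every count-based alternative, and KCNQ1OT1 kept both line differences. With limma on log2(TPM + 0.5), where TPM also follows the estimated isoform mix, these values missed the threshold: NEAT1 0.54, 0.40, 0.63 and 0.49 (lines with vehicle and Act D, Act D in HCT 116p53-/- and in RPL3 KO-labelled libraries), KCNQ1OT1 0.32 (lines, vehicle) and 0.34 (Act D, RPL3 KO-labelled), NORAD -0.385 and -0.36 and PVT1 -0.63 and -0.31 (Act D, both lines), and MALAT1 0.42 (Act D, RPL3 KO-labelled). On that scale NORAD's line differences were -0.33 and -0.31, MALAT1's with Act D -0.77 (adjusted p = 0.00797) and PVT1's difference in response 0.32, all with the sign turned. The median of all genes on that scale was -0.36 and -0.37 between the lines with vehicle and Act D. NORAD and KCNQ1OT1 each had the same length in every library. KCNQ1OT1's group means of 0.367 to 0.877 TPM were close to the 0.5 added before the log, which compresses its differences. Library size alone gave NORAD -0.075 and -0.039 between the lines and MALAT1 -0.086 with Act D, and shifted the median of all genes to -0.26 in both line comparisons. The share of calls that were higher was 49.2%, 49.8%, 40.5% and 29.5% in the order above, 37.6%, 38.3%, 19.3% and 10.9% with library size alone, 49.3% and 48.3% in the Act D comparisons with upper-quartile scaling, and 27.7%, 27.4%, 26.7% and 15% with limma. NORAD with Act D in the RPL3 KO-labelled libraries missed the threshold with upper-quartile scaling (-0.22) and with only the groups compared (-0.31), and between the lines with Act D without a filter (0.18). KCNQ1OT1 in HCT 116p53-/- passed with DESeq2 (0.41), the likelihood-ratio test (0.405), no filter (0.40) and only the groups compared (0.41). In the difference between responses MALAT1 passed with DESeq2 (0.55) and no filter (0.52) and NEAT1 with no filter (-0.51). Replicate numbers did not pair the libraries (correlations of same-numbered deviations from -0.104 to 0.101). The replicate number as a block ended 2 calls, NORAD between the lines with Act D (0.21, adjusted p = 0.0505) and NORAD with Act D in the RPL3 KO-labelled libraries (-0.29, adjusted p = 0.0605), and changed no other call of these members; it left 10964, 10818, 2469, 1502 and 722 genes called, against 11185, 11043, 2939, 1869 and 1025. The cause was not tested.

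Leaving out 1 library at a time gave ranges of -0.56 to -0.25 for MALAT1 and 0.11 to 0.22 for NORAD between the lines with vehicle, 0.14 to 0.255 for NORAD between the lines with Act D (5 of 6 without the call), -0.39 to -0.28 for NORAD with Act D in HCT 116p53-/-, 0.60 to 1.04 for NEAT1 and -0.35 to -0.245 for NORAD with Act D in the RPL3 KO-labelled libraries, and 0.405 to 0.71 for MALAT1 and -0.031 to 0.10 for NORAD in the difference between responses, where NORAD's sign turned in 2 of 12. Of 180 such values of the 5 members, 160 kept direction and side of the threshold. Genes called ranged from 1833 to 2312 for Act D in HCT 116p53-/- and from 614 to 979 for the difference between responses; the lowest counts came without HCT 116p53-/- Act D replicate 1 (1833 and 630), Act D replicate 2 (1949 and 669) or RPL3 KO Act D replicate 1 (614). With limma 805, 233 and 81 genes were called for Act D in HCT 116p53-/-, in RPL3 KO-labelled libraries and for the difference. At these depths the floor of 3 counts over a group, a chosen mark, stood at 0.0635 CPM in the RPL3 KO-labelled vehicle group.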

Other observations

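Of 35 other long non-coding RNAs that were listed, 28 were tested. Between the lines with vehicle 13 were higher and 10 lower in the RPL3 KO-labelled libraries (median log2 0.33, all lncRNA genes tested -0.03), and with Act D 14 were higher and 10 lower, where 55.2% and 52.0% of lncRNA genes were called. UCA1, an RNA often raised in carcinomas, was at 37.9 CPM in HCT 116p53-/- and 0.254 CPM in the RPL3 KO-labelled libraries with vehicle. HOTAIR, transcribed from the HOXC cluster, was at 0 in the 6 HCT 116p53-/- libraries and at 1.23 and 1.84 CPM in the RPL3 KO-labelled groups, and LINC01116 went from 0.108 to 6.00 CPM with vehicle. With Act D 2 of the 28 were higher and 2 lower in HCT 116p53-/-, where 18.7% of all genes and 6.44% of lncRNA genes were called, and 1 was higher and 2 lower in the RPL3 KO-labelled libraries, where 11.9% and 5.27% were. MIR22HG, the host gene of miR-22, rose in both, from 3.48 to 11.1 CPM (log2 1.66, adjusted p = 2.37e-07) and from 22.1 to 31.5 CPM (log2 0.51, adjusted p = 0.00389). In HCT 116p53-/- DANCR rose by 0.41 (adjusted p = 0.0237) and JPX fell by 0.41 (adjusted p = 0.0335). In the RPL3 KO-labelled libraries LINC00511 fell by 0.64 (adjusted p = 0.00476) and CYTOR by 0.54 (adjusted p = 0.00205).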
